A study of Mus musculus with 6 samples.

Results

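The centromere-near 8 Mb of the mouse autosomes was examined for CpG methylation in male germ cells. Mouse chromosomes are telocentric, so the first megabases of each reference sequence lie next to the centromere, and the first cytosine measured there was at base 3002254. The stretch was set by position alone: cytosines within the first 8 Mb of each of the 19 autosomes that all 6 libraries reported. It held 78338 of the 2210988 cytosines listed in all 6 libraries, or 3.54%. Of these, 75216 fell in 5658 tiles of 500 bp with 3 or more cytosines, out of 163069 tiles in all, and 3122 lay outside such tiles.

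There were 3 CSDS libraries, made from male germ cells after chronic social defeat stress, and 3 Control libraries. CSDS is a model in which a mouse meets a larger, aggressive mouse repeatedly. Strain, age, length of exposure, time of sampling and the way the germ cells were isolated are not given in the sources used here, nor is it said that the replicates are separate animals, so p-values measure the spread between these libraries. Each library was made from DNA by reduced representation bisulfite sequencing (RRBS), which reads CpG-rich fragments after bisulfite has turned unmethylated cytosines into a form read as T. The share of reads that remain C at a cytosine is its methylation level.

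Constitutive heterochromatin at mouse centromeres consists of satellite repeats and carries repressive histone marks. The unique sequence next to it holds genes, tandem gene families and recent duplications. In most tissues, CpG-poor DNA is highly methylated, CpG islands at gene starts stay unmethylated, and germ cells erase and later rewrite methylation, including the imprints set in the mother's and father's germ lines. In a pool of cells, a change in methylation within cells and a change in which cells are present cannot be told apart.

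The sequences below carry the results on 3 kinds of locus. The first 4 are the 250 bases before the transcription start of predicted genes at the start of chromosome 14, of which the first 3 are CpG-rich and weakly methylated and the last is CpG-poor and highly methylated. Capitals mark each CpG, and the sequences and their GRCm38.p6 positions are from RefSeq.
Gm3636, chr14:6757058-6757307, minus strand: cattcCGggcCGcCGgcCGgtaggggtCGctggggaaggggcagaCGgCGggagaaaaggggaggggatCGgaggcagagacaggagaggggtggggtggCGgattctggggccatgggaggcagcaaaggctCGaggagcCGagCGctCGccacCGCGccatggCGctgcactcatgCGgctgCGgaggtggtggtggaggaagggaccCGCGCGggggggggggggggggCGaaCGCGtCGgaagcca
Gm3667, chr14:6889932-6890181, minus strand: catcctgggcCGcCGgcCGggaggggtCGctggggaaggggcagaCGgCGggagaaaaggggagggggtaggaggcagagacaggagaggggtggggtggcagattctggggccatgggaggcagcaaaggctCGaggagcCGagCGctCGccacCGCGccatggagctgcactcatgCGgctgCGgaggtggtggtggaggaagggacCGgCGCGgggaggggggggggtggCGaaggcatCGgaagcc
Gm3558, chr14:7568567-7568816, minus strand: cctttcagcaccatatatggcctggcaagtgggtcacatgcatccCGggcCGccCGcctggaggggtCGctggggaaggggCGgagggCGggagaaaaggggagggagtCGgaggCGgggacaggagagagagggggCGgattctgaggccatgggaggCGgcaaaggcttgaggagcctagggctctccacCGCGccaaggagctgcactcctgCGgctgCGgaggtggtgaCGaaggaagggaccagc
Gm8279, chr14:5131332-5131581, plus strand: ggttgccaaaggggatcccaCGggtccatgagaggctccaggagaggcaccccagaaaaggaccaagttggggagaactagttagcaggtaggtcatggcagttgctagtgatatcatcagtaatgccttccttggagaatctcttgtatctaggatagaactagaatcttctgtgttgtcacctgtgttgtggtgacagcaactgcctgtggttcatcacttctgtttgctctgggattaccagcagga
In a global alignment, identical bases made up 94.8% of all alignment positions, gaps included, between Gm3636 and Gm3667. The share was 64.1% between Gm3636 and Gm3558 and 48.6% between Gm3636 and Gm8279. Gaps lowered the value for Gm3558, whose alignment held 186 identical bases, 24 mismatches and 80 gap positions. The promoter of Tbrg4, a gene of chromosome 11 shown next, reached 48.6% with Gm3636 as well, so the value for Gm8279 does not show a likeness to Gm3636. The 250 bases held 25 CpGs for Gm3636, 19 for Gm3667, 15 for Gm3558 and 1 for Gm8279.

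The next 2 sequences lie inside the tiles of Cyp51 and Tbrg4, which were among the near tiles with the smallest p for CSDS against Control. They are shown in the same way, with 20 CpGs for Cyp51 and 21 for Tbrg4.
Cyp51, chr5:4104698-4104947, minus strand: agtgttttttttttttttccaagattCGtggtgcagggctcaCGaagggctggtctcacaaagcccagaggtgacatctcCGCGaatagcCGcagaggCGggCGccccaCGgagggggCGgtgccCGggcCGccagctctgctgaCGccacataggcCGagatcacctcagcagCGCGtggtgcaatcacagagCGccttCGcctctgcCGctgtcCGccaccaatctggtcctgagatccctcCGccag
Tbrg4, chr11:6626068-6626317, minus strand: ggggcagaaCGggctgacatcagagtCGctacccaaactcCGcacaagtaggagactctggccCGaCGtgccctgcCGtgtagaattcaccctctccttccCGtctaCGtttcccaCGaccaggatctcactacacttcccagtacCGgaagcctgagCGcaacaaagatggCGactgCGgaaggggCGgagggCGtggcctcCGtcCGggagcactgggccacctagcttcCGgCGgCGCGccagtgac
Next, 3 mature microRNAs of the Mir290 cluster, whose 8 annotated hairpins lie at chr7:3218626-3220841, are given with the seed (bases 2 to 8) in capitals. Tiles over this cluster up to base 3220000 were among the weakly methylated ones. No tile of the cluster was measured past that base, where miR-294-3p and miR-295-3p lie. These microRNAs are known from embryonic stem cells and early germ cells of the mouse. The seed AAGUGCU is shared by miR-294-3p and miR-295-3p, and that of miR-291b-3p differs in its last base.
mmu-miR-294-3p: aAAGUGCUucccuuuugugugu
mmu-miR-295-3p: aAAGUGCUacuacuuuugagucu
mmu-miR-291b-3p: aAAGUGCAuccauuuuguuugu

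The deposited tables listed 2420308 to 3156788 cytosines per library with a median coverage of 44 to 50 reads and none under 10. Of the cytosines reported by any library, all 6 reported 66.0% within 8 Mb, against 66.5% on the autosomes beyond 8 Mb. The median near tile held 393 to 434 reads per library. Unmethylated cytosines that fail to convert also read as C. At 27 mitochondrial CpGs, which are taken to be largely unmethylated, the median share read as C was 8.50%, 4.41% and 4.53% in the CSDS libraries, against 8.90%, 8.84% and 10.04% in the Control libraries. CSDS replicate 1 thus stood with the Control libraries on this measure. Windows around the starts of 9 germ cell genes (Ddx4, Dazl, Sycp1, Sycp3, Mael, Hormad1, Tdrd1, Brdt and Tex101) averaged 11.7 to 19.7% in CSDS and 14.9 to 27.0% in Control. Those of the Leydig cell genes Star and Insl3 averaged 95.6% and 45.8% in CSDS and 95.98% and 48.7% in Control, while those of the Sertoli cell genes Sox9, Amh and Dhh were at 15.8%, 9.47% and 14.05% in CSDS and 18.9%, 11.6% and 20.02% in Control, so low methylation at these starts does not separate the cell types. Imprinted genes were listed for this check too. Rasgrf1, at a paternally methylated imprint expected to be high in male germ cells, averaged 7.68% in CSDS and 13.5% in Control. Whether its window covers the imprint's control region was not tested. Snrpn and Igf2r averaged 16.9% and 15.8% in CSDS and 28.5% and 20.2% in Control. H19 and Meg3 had no window.

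Near tiles were methylated at 65.9%, 63.9% and 63.97% in the 3 CSDS libraries, a mean of 64.6% ± 1.17, against 66.5%, 66.5% and 66.3% in the Control libraries, a mean of 66.5% ± 0.120 (SD, n = 3 each). Every CSDS library lay below every Control library, and CSDS replicates 2 and 3 lay lowest. Each near tile was then set against the mean of the other tiles of its chromosome in the same class of listed cytosines (3 to 5, 6 to 9, 10 to 19, 20 to 39, or 40 and more). This count depends on which CpGs RRBS reads, so few listed cytosines need not mean few CpGs. Matched in this way, the rest of the chromosomes averaged 65.4% ± 1.10 in CSDS and 67.3% ± 0.147 in Control. The difference between CSDS and Control was -1.87 points near the centromere and -1.92 points in the matched rest (exact two-sided permutation test, p = 0.1 for each, the smallest that 3 against 3 libraries allow). After correction by the mitochondrial share, the near difference was -0.627 points (p = 0.2, exact permutation test). Some near tiles lay below that share in every library, so the correction can remove too much.

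The near stretch lay -0.794 ± 0.0649 points from its matched rest over the 6 libraries (exact two-sided sign-flip test, p = 0.03125, the smallest 6 libraries allow, and 0.0341 adjusted over 12 such measures). The difference was -0.772 in CSDS and -0.816 in Control, and these did not differ beyond the spread between libraries (+0.0441 points, exact permutation p = 0.5). All libraries read the same tiles, so this test covers the repeatability between libraries and not the differences between chromosomes. Chromosome 7 carried most of the value: without it the difference was -0.0342 points (exact p = 0.3125), and without chromosomes 7, 14 and 19 it was +0.363. With each cytosine weighted equally it was +0.277. With the limit at 6 Mb it was -2.68 points and at 10 Mb -0.586, and with gene position matched as well it was -0.178.

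**Figure D1:**
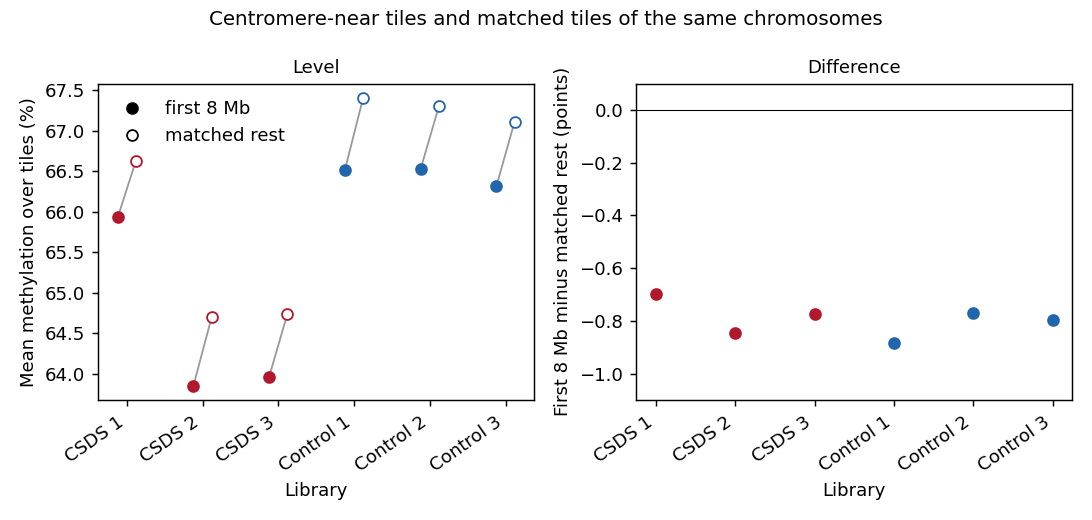
Left, mean methylation (%) of the 5658 tiles in the first 8 Mb (filled) and of density-matched tiles on the rest of the same chromosomes (open) in each of the 3 CSDS (red) and 3 Control (blue) libraries, with an axis that does not start at 0. Right, the difference in percentage points. All 6 libraries sit below 0, and the CSDS mean of -0.772 is close to the Control mean of -0.816.

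By class of density, near tiles with 3 to 5 and 6 to 9 listed cytosines averaged 81.0% and 75.1% over the 6 libraries and lay -1.73 ± 0.118 and -1.51 ± 0.0717 points from their matched rest. Tiles with 20 to 39 cytosines went the other way, at 29.3% and +3.16 ± 0.132 points. The densest tiles, with 40 or more, averaged 11.3% and lay -0.159 ± 0.0180 points from theirs, while the class of 10 to 19 did not differ beyond the spread between libraries (-0.0915 ± 0.170 points, exact sign-flip p = 0.15625). More near tiles had an intermediate level of 20 to 80% (21.3%, against 19.9% in the matched rest), and fewer were above 80% (56.9%, against 58.6%).

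The near tiles were also divided by position relative to genes. Of the near tiles, 1543 lay within 1 kb of a gene end, 2292 inside genes and 1823 between genes. Compared with tiles of the same chromosome, density and position, gene-end tiles lay -2.38 ± 0.0931 points and gene interiors -1.57 ± 0.0585 points from the rest, whereas intergenic tiles lay +3.43 ± 0.168 points from it. Each sign held in all 6 libraries (exact sign-flip p = 0.03125, 0.0341 adjusted over the 12 measures). Intergenic near tiles were methylated at 82.1%, 80.9% and 80.7% in CSDS and at 82.7%, 82.6% and 82.2% in Control, so that all 3 CSDS libraries lay below the Control libraries here too.

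The intergenic excess differed by the number of listed cytosines. The 341 intergenic near tiles with 10 to 19 listed cytosines averaged 80.3%, against 70.9% for intergenic tiles of that density beyond 8 Mb, and near tiles were higher on 17 of 19 chromosomes. The 69 with 20 to 39 cytosines averaged 72.8%, against 56.0% beyond 8 Mb, with near tiles higher on 13 of 18 chromosomes. Matched by chromosome, these differences were +9.56 ± 0.315 and +16.4 ± 0.594 points over the 6 libraries. Of the 69 tiles, 65.2% were above 80% methylated, against 45.7% beyond 8 Mb. The 544 intergenic near tiles with 6 to 9 cytosines averaged 81.97%, against 79.2% beyond 8 Mb (+2.91 ± 0.201 points when matched), and were higher on 15 of 19 chromosomes. In the class of 3 to 5, intergenic near tiles averaged 83.4%, against 82.99%. Only 3 intergenic near tiles had 40 or more, at 17.8%, against 17.4%, and near tiles were higher on 1 of 3 chromosomes. Gene-end tiles with 10 to 19 cytosines went the other way on most chromosomes, at 27.9%, against 31.7% beyond 8 Mb, and were higher near the centromere on 2 of 19. Without chromosomes 7, 14 and 19, the dense intergenic near tiles of the 2 classes averaged 80.6% and 73.0%. The split by density within a position was made after the values were seen, and is given without a test.

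**Figure D2:**
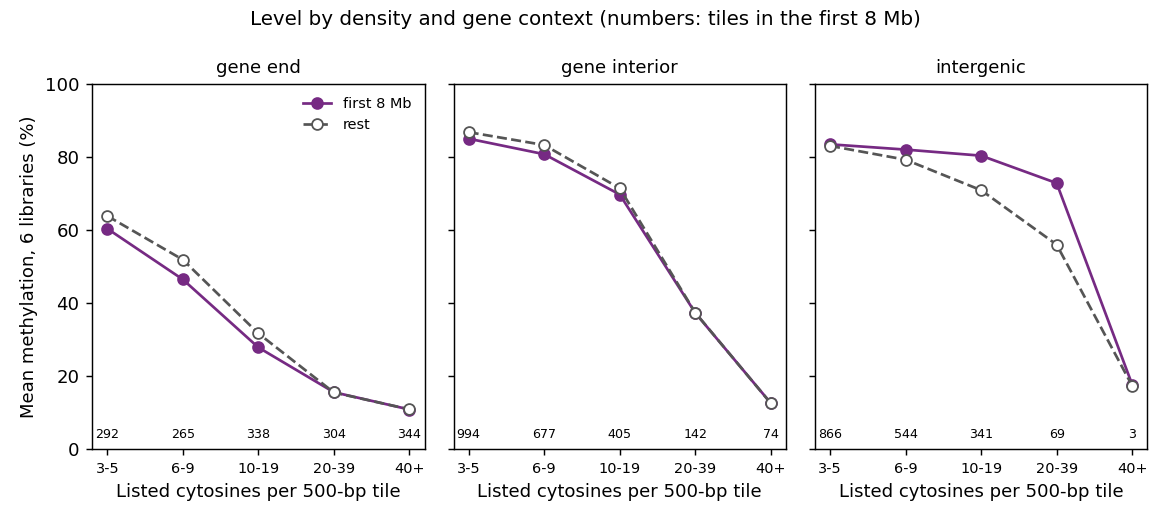
Mean methylation (%) over the 6 libraries by number of listed cytosines per 500-bp tile, for tiles within 1 kb of a gene end, inside genes and between genes; filled points are the first 8 Mb, open points the rest of the autosomes, and the numbers count near tiles. The curves separate for intergenic tiles with 10 to 39 cytosines, where the first 8 Mb reaches 80.3% and 72.8%, and meet for tiles with 40 or more.

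The 5 dense near tiles with the highest level were almost fully methylated. A tile of 22 cytosines between genes near Atad2b (chr12:5051001-5051500) was at 96.8%, 97.1% and 96.2% in CSDS and at 98.0%, 97.4% and 96.8% in Control. One of 20 cytosines near the predicted gene Gm20618 (chr6:6627001-6627500) was at 98.5%, 96.7% and 96.0% in CSDS and at 97.3%, 96.3% and 96.4% in Control. The groups overlapped at both. The others lay inside Kdm2a, a histone demethylase that binds CpG islands (97.5% ± 0.246 in CSDS, 97.7% ± 3.01 in Control), inside Lrp5, a Wnt co-receptor (96.98% ± 0.238 in CSDS, 97.2% ± 0.257 in Control), and close to Gm18715 (97.2% ± 0.956 in CSDS, 96.4% ± 0.425 in Control). The 5 near tiles of fewer than 10 listed cytosines with the lowest level were at gene ends or inside genes: at Gm3411, Zfp597, Tfap4, Fam110b and Pcx, with means under 6% in both groups. Fam110b was at 0%, 0% and 1.36% in CSDS and at 5.44%, 6.80% and 4.63% in Control, with 7 cytosines (quasi-binomial p = 0.0151, adjusted p = 0.217).

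Chromosomes differed far more from each other than the libraries did. Near tiles lay below their matched rest in all 6 libraries on 8 chromosomes and above it in all 6 on 10, with chromosome 15 mixed. The median over chromosomes was +0.484 points. Chromosome 14 (-10.3 ± 0.700 points) and chromosome 7 (-9.34 ± 0.372) stood apart, followed by chromosome 8 (-2.90 ± 0.196), and chromosome 9 was at the other end (+2.44 ± 0.237). With gene position matched as well, chromosomes 14 and 7 remained lowest at -8.20 and -6.09 points, but the order of the others changed: chromosome 17 came next at -2.37, chromosome 8 lay at -1.68, chromosome 9 at +0.265, and chromosome 5 was highest at +2.73. The sign changed on 4 chromosomes: chromosome 3 lay at -2.24, against +1.33 with density alone matched, chromosome 4 at -0.428, against +0.484, chromosome 16 at +0.0362, against -0.791, and chromosome 19 at +2.65, against -0.300. Chromosome 7 had the lowest near level, with 55.3%, 52.6% and 52.97% in CSDS and 55.9%, 56.4% and 55.8% in Control. Chromosome 14 stood at 60.9%, 57.4% and 59.00% in CSDS and at 60.8%, 61.2% and 61.4% in Control, where CSDS replicate 1 lay among the Control libraries. Chromosome 9 had the highest, with 74.2%, 72.3% and 72.1% in CSDS and 74.5%, 74.8% and 74.6% in Control. Chromosome 19, which held 946 of the near tiles (16.7%) and 183 coding genes within 8 Mb, had a low level of 58.9% over the 6 libraries but lay only -0.300 ± 0.119 points from its matched rest. All 19 chromosomes were lower in CSDS, with differences of -2.42 to -1.49 points.

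**Figure D3:**
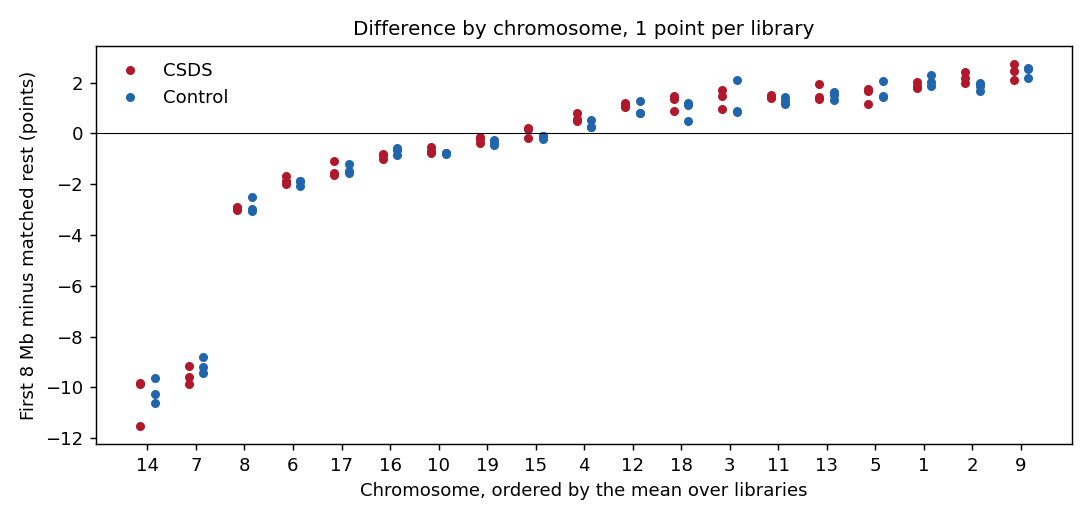
Difference in mean methylation (percentage points) between tiles in the first 8 Mb and density-matched tiles on the rest of the same chromosome, 1 point per library (CSDS red, Control blue), with chromosomes ordered by their mean. Chromosomes 14 and 7 lie near -10.3 and -9.34, apart from the others, and the libraries of both groups overlap on most chromosomes.

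Within the stretch the level changed with distance from the centromere end. Compared with tiles beyond 15 Mb of the same chromosome and density, tiles in the first 1-Mb step (3 to 4 Mb) lay -3.69 ± 0.185 points and those in the second -3.49 ± 0.120 points from them. The third lay at -0.569 ± 0.0512, the fourth at +1.87 ± 0.148 and the fifth (7 to 8 Mb) at +3.35 ± 0.116. The first step was below on 16 of 19 chromosomes and the fifth on 5 of 19. With gene position matched as well as density, the first step lay at -2.93 points and the fifth at +1.92. Without chromosomes 7 and 14 and with density alone matched, they lay at -2.79 and +3.96, and with gene position matched there too at -2.34 and +2.41. The second step depended more on these choices: it was at -1.60 with gene position matched, at -1.77 without chromosomes 7 and 14, and at -0.564 with both. With density alone matched, it was below on 12 of 19 chromosomes. The third changed sign, to +0.0833 with gene position matched and +0.0626 without chromosomes 7 and 14. The 8 Mb limit is arbitrary: tiles just inside it (7 to 8 Mb) averaged 72.1% and those just outside (8 to 9 Mb) 67.4%, and from 8 to 15 Mb the steps ranged from -0.577 to +3.19 points, so the pattern past the first steps was not a steady trend.

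**Figure D4:**
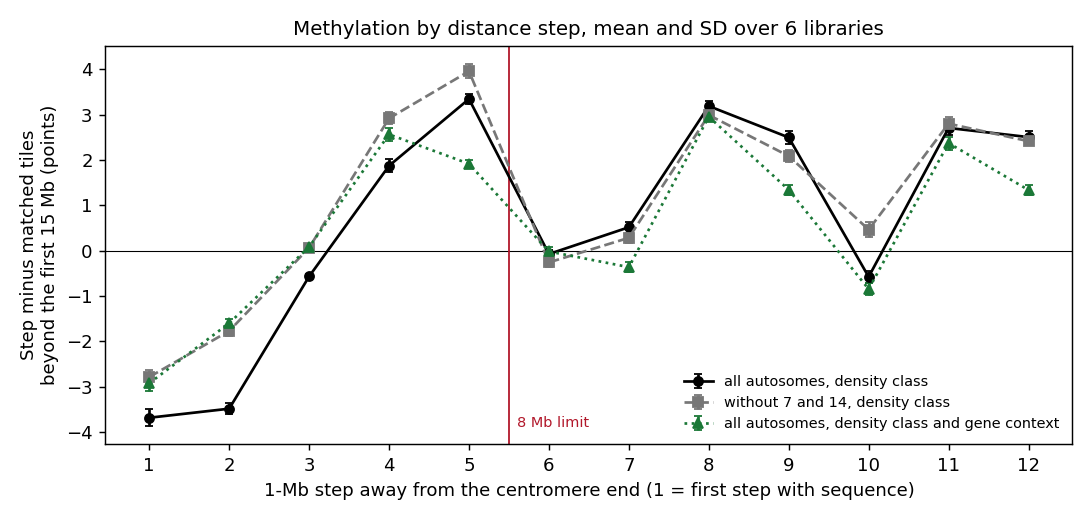
Difference in methylation (percentage points, mean and SD over 6 libraries) between tiles of each 1-Mb step from the centromere end and matched tiles beyond 15 Mb of the same chromosome. The first 2 steps lie at -3.69 and -3.49 with density matched, the fifth at +3.35, and the steps past the 8 Mb limit vary without a trend.

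Chromosome 14 begins with a run of predicted genes, called the array here. Within its first 7.6 Mb, a limit set after the values were seen, the annotation places 75 coding genes, of which 71 carry only a predicted-gene symbol (Gm or LOC), and no role is given to them here. Windows of 1 kb on each side of the start were measured at 21 of the 75, and 17 of these averaged under 20% over the 6 libraries. The windows of D830030K20Rik and Gm38690 gave the same values over 18 cytosines in every library, and the counts of array windows include both. Gm3636 was at 10.001%, 6.47% and 6.38% in CSDS and at 13.2%, 8.78% and 8.13% in Control. Gm3667, its close copy, was at 3.72%, 3.08% and 3.94% in CSDS and at 5.44%, 6.79% and 6.61% in Control. Here the groups did not overlap (quasi-binomial p = 0.114, adjusted p = 0.18). After the mitochondrial correction its difference changed sign, to +0.876 points, but every library lay below its mitochondrial share. Gm3558 was at 7.59%, 1.61% and 3.05% in CSDS and at 15.6%, 9.26% and 10.9% in Control, also without overlap (quasi-binomial p = 0.0141, adjusted p = 0.113). Gm8279, whose promoter is CpG-poor as printed above, was at 94.1%, 92.4% and 95.1% in CSDS and at 92.9%, 95.9% and 94.9% in Control.

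Across the array most of the measured CpG-rich starts were weakly methylated, but the high level of a CpG-poor start was seen only at Gm8279. Starts with CpG counts in between were not highly methylated. Gm8108, Gm3739 and LOC115485924 averaged 13.7%, 21.9% and 6.80% in CSDS and 17.6%, 28.2% and 11.2% in Control. Among the 161 genes of any type in the array, 21 had a promoter sequence with 15 or more CpGs in 300 bases. Windows were placed only at coding genes. Of the coding genes measured, 16 had such a start, 15 averaged under 20%, and the range was 4.72 to 22.0%. Promoters with 4 or fewer CpGs belonged to 64 genes of any type, many of which could have no window. Of the coding genes measured, 2 had such a start, Gm8279 and Gm3173 (25.6% ± 0.643 in CSDS, 28.3% ± 3.02 in Control). Tiles of the array within 1 kb of a gene end (33 tiles) had a median of 12.9%, against 16.5% for gene-end tiles on the rest of chromosome 14, and the 65 other tiles of the array had a median of 90.3%. The mean of these 65 tiles was lower, at 74.4%, and 10 of them were under 20%. Of the 21 windows, 19 were lower in CSDS with a median difference of -3.86 points, against -3.41 over all windows tested, and 14 were lower after the mitochondrial correction (median -0.669). The groups stood apart, with CSDS below, at 6 of the 21, against 37.1% of all windows. Reads of near-identical copies can be placed on the wrong one, and how such reads were treated is not given in the sources used here, so values of single copies are uncertain. The array had a median of 54.3 reads per cytosine, against 59.3 on the rest of chromosome 14, and 61.2% of the cytosines in the near stretch of chromosome 14 were listed in all 6 libraries.

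On chromosome 7 the low level covered the first 4 steps, at 53.4%, 49.6%, 53.3% and 60.2% over the 6 libraries, and the fifth was at 69.4%. The second step, where 47.0% of the tiles lay at gene ends, was -13.5 points from its matched rest. The stretch holds the Mir290 cluster, whose microRNAs were printed above. A tile of 20 cytosines over it (chr7:3219001-3219500) was at 13.6%, 6.80% and 9.22% in CSDS and at 21.0%, 19.4% and 17.0% in Control, with no overlap (quasi-binomial p = 0.00589, adjusted p = 0.186). The next tile (chr7:3219501-3220000) was at 13.02%, 5.79% and 11.05% in CSDS and at 13.07%, 15.6% and 15.5% in Control, where the lowest Control library stood just above the highest CSDS library. The 2 tiles before them averaged 21.98% and 29.3% in CSDS and 26.8% and 33.3% in Control, with groups that overlapped. The first of these 2 ends before the first hairpin. No tile was measured over the part of the cluster past base 3220000.

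The number of CpGs at the gene start went with the level near the centromere as it did elsewhere. Among 474 near windows placed on an annotated start, the 28 with 4 or fewer CpGs in 300 bases (the letters CG, which read the same on both strands) had a median of 74.7% in CSDS and 75.1% in Control, and the 331 with 15 or more had 10.5% in CSDS and 14.4% in Control. Of all near promoters in the table, 37.4% held 15 or more CpGs, against 35.1% beyond 8 Mb, with 65.8% on chromosome 19 and 19.9% on chromosome 14. Of the CpG-rich near starts, 83.4% were under 20% in Control, against 91.1% of those beyond 8 Mb, a difference given without a test.

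The comparison of CSDS with Control was fitted tile by tile and window by window across the genome with a quasi-binomial model (F test, Benjamini-Hochberg adjustment over the whole table). A feature was called where the adjusted p was below 0.05 and the groups lay at least 10 points apart. The model called 0 of 5658 near tiles and 0 of 610 near windows, with 0% called among all tiles and all windows. The smallest adjusted p was 0.178 for tiles and 0.113 for windows. At an unadjusted p under 0.05 there were 890 near tiles (15.7%), against 15.6% of all tiles, and 244 of the 610 near windows, against 41.1% of all windows. limma on logit values called 0 near tiles, with 0% of all tiles, and 3 near windows (0.492%), against 0.295% of all windows. Every CSDS library lay below every Control library at 884 near tiles (15.6%), against 15.7% of all tiles, and above at 89 (1.57%), against 1.8% of all tiles. In windows the groups stood apart in this way, with CSDS below, at 228 (37.4%), against 37.1% of all windows. Near tiles were lower in CSDS in 73.6% of cases, against 73.7% of all tiles, and near windows in 96.9%, against 96.4%. After the mitochondrial correction, 60.3% of near windows were lower in CSDS, against 58.3% of all windows. These shares near the centromere were close to those of the whole genome. Without CSDS replicate 1, whose mitochondrial share stood with the Control libraries, 72 near tiles were called (1.27%), against 1.42% of all tiles, and 11 near windows (1.8%), against 1.32% of all windows, all lower in CSDS near the centromere.

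The 3 near windows that limma called were those of Ddx56, Gtpbp10 and Zfp958, which are named here after their values were seen. The start of Ddx56, which encodes an RNA helicase (27 cytosines), was at 10.7%, 2.36% and 4.74% in CSDS and at 13.7%, 49.5% and 14.4% in Control. The size of its difference, -19.9 points, rested on Control replicate 2, and without that library the difference was -8.13 points. The start of Gtpbp10, a mitochondrial ribosome assembly factor (19 cytosines), was at 15.1%, 3.49% and 1.501% in CSDS and at 17.4%, 11.5% and 24.9% in Control.

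Among near tiles whose groups did not overlap, the 8 with the smallest unadjusted p that were lower in CSDS lay at gene ends in 7 cases. At Tbrg4, which encodes a mitochondrial RNA-binding protein (chr11:6626001-6626500, 41 cytosines, 2799 to 3625 reads per library), the level was 9.78%, 9.28% and 11.6% in CSDS and 16.5%, 20.3% and 17.8% in Control. The difference of -8.00 points was larger than the spread between replicates but did not pass the threshold (quasi-binomial p = 2.91e-05, adjusted p = 0.178), and it was -5.23 after the mitochondrial correction. At Cyp51, the lanosterol demethylase of cholesterol synthesis, which in male germ cells also yields a meiosis-activating sterol (chr5:4104501-4105000, 15 cytosines), it was 12.04%, 8.83% and 10.2% in CSDS and 17.6%, 21.8% and 32.1% in Control (adjusted p = 0.178, quasi-binomial). Both tiles hold the promoter bases printed above.

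Snx9, a membrane-remodelling protein of endocytosis (chr17:5841501-5842000, 65 cytosines), was at 7.58%, 6.31% and 7.02% in CSDS and at 13.5%, 10.2% and 12.97% in Control, and after the correction its groups overlapped, as they did at the next pair of genes. Clcn4, a chloride and proton exchanger (chr7:7299001-7299500, 23 cytosines), was at 5.44%, 4.54% and 4.13% in CSDS and at 15.03%, 8.60% and 13.5% in Control. This gene is autosomal in laboratory mice and X-linked in other mammals. Sdhaf3, an assembly factor of succinate dehydrogenase (chr6:6955501-6956000, 24 cytosines), was at 9.68%, 7.95% and 9.91% in CSDS and at 12.998%, 18.9% and 18.3% in Control.

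The other 3 tiles had 8 to 22 cytosines. The predicted gene Gm7390 (chr9:4977501-4978000, 12 cytosines) was at 12.96%, 9.14% and 3.67% in CSDS and at 31.3%, 29.7% and 23.98% in Control. D330050I16Rik (chr19:5389501-5390000, 8 cytosines) was at 4.04%, 6.42% and 2.57% in CSDS and at 18.5%, 20.02% and 15.4% in Control. The eighth was the only intergenic one, 51547 bases from Gm41416 (chr16:5536501-5537000, 22 cytosines, 1103 to 1549 reads). It was at 57.9%, 67.0% and 58.7% in CSDS and at 81.2%, 84.1% and 77.3% in Control, and the difference of -19.6 points was -20.1 after the correction.

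The 8 near tiles higher in CSDS were almost fully methylated in both groups with 1 exception. A tile inside St18, a zinc-finger transcription factor (chr1:6518001-6518500, 12 cytosines), was at 92.8%, 86.9% and 86.3% in CSDS and at 81.8%, 72.5% and 78.3% in Control (quasi-binomial p = 0.0186, adjusted p = 0.23). The other 7, at or near Upf2, Gm31035, Vmn2r-ps89, Cacng7, Pisd-ps1, Ramp3 and Patz1, averaged 93.98 to 98.4% in CSDS and 89.96 to 94.8% in Control. Upf2, a factor of nonsense-mediated decay, had a tile higher and a window lower in CSDS, neither of them called. At its downstream end (chr2:6055501-6056000) the tile averaged 96.9% ± 1.99 in CSDS and 91.3% ± 2.26 in Control (quasi-binomial adjusted p = 0.185). The window at its start averaged 10.8% ± 1.79 in CSDS and 15.6% ± 4.10 in Control, where the median difference over all windows was -3.41 points.

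**Figure D5:**
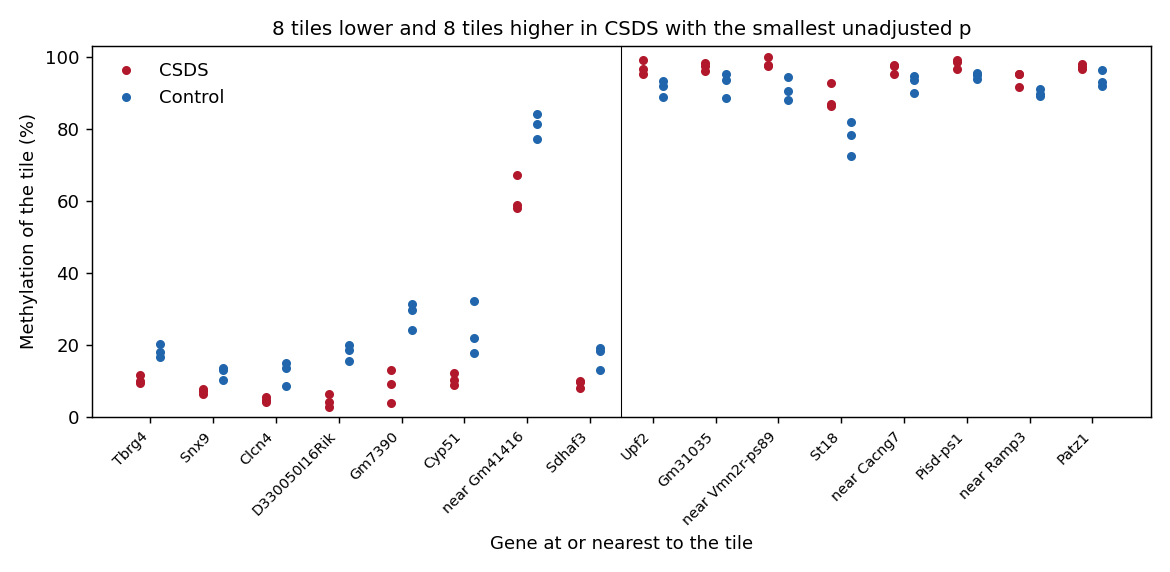
Methylation (%) of the 8 near tiles lower (left of the line) and 8 higher (right) in CSDS with the smallest unadjusted p, 1 point per library (CSDS red and left, Control blue and right of each pair). The groups do not overlap at any of the 16 because the tiles were chosen that way, and the tiles on the right lie mostly above 90%.

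The imprinted genes of the stretch lie in the Peg10 cluster on chromosome 6 and the Peg3 cluster on chromosome 7. Peg10 and Peg3 are expressed from the father's copy, and the control regions of their clusters gain methylation in the egg, not in male germ cells. Of 12 listed genes within 8 Mb, 9 were measured in 7 distinct windows, 7 genes were lower in CSDS, and 0 were called. The shared Peg3 and Usp29 window, with 9 cytosines, was at 26.2%, 14.1% and 20.7% in CSDS and at 23.3%, 22.8% and 21.3% in Control, with groups that overlapped. That of Peg10 and Sgce, with 32 cytosines, was at 19.5%, 10.8% and 19.1% in CSDS and at 16.4%, 11.4% and 16.8% in Control. Zim1, next to Peg3, was at 27.1%, 12.7% and 8.01% in CSDS and at 22.0%, 20.9% and 24.4% in Control, where CSDS replicate 1 was the highest of all. The neighbours Calcr, the calcitonin receptor, and Ppp1r9a, an actin-binding scaffold, averaged 11.2% ± 2.88 and 10.7% ± 2.33 in CSDS and 16.3% ± 0.554 and 14.2% ± 0.435 in Control. Asb4 averaged 18.3% ± 6.57 in CSDS and 22.97% ± 0.263 in Control, and Pon2 averaged 13.1% ± 2.34 in CSDS and 15.4% ± 0.555 in Control.

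The lists of other genes in the stretch gave like values. Of the 13 developmental regulators measured, 13 were lower in CSDS and 0 were called, with a median of -3.36 points, against -3.41 over all windows. The largest difference was at Dlx5, a homeobox regulator of limb and craniofacial development, at 26.4%, 23.99% and 19.2% in CSDS and 29.1%, 40.7% and 29.3% in Control. Control replicate 2 was its highest library (quasi-binomial p = 0.125, adjusted p = 0.19). Windows in these lists lie on a gene end where no start was given, as at Dlx5 and Sox17, and need not cover the promoter. Sox17, the endoderm and vessel regulator, averaged 8.80% ± 1.82 in CSDS and 14.6% ± 1.43 in Control, and the Wnt receptor Fzd1 averaged 8.50% ± 2.64 in CSDS and 13.5% ± 1.78 in Control. Klf6 averaged 16.7% ± 2.03 in CSDS and 21.5% ± 2.50 in Control, and Tfap4 was lowest in Control at 8.85% ± 6.01, with 6.43% ± 3.76 in CSDS.

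Of 17 measured genes of neuropeptide, hormone and stress signalling, 16 were lower in CSDS and 0 were called, with a median of -3.29 points. The insulin receptor Insr was at 12.99%, 9.89% and 9.64% in CSDS and at 19.7%, 15.1% and 14.9% in Control, and the estrogen receptor Esr1 at 28.4%, 23.1% and 22.9% in CSDS and at 30.6%, 31.1% and 29.2% in Control. The groups did not overlap at either, nor at 6 of the 17 in all, against 37.1% of all windows with CSDS below. After the mitochondrial correction, 8 of the 17 were lower in CSDS, with a median of +0.0396 points. Penk, the enkephalin precursor, averaged 8.18% ± 2.92 in CSDS and 12.4% ± 0.429 in Control, and the activity-induced factor Npas4 averaged 12.4% ± 2.31 in CSDS and 16.6% ± 1.45 in Control. The opioid receptor gene Oprm1 was lowest at 4.57% ± 3.63 in CSDS and 8.20% ± 1.78 in Control. Vip, a neuropeptide, was highest at 68.5% ± 3.96 in CSDS and 67.9% ± 2.46 in Control.

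Germ line genes were mostly weakly methylated. Of 9 measured, 8 were lower in CSDS, 0 were called, and the median was -2.55 points. Mos, the kinase of meiotic arrest in eggs, was at 12.6%, 6.50% and 6.69% in CSDS and at 12.6%, 15.01% and 13.7% in Control. Crem, the regulator of spermatid genes, averaged 7.32% ± 2.62 in CSDS and 9.76% ± 0.427 in Control, Catsperz of the sperm calcium channel 13.5% ± 2.85 in CSDS and 17.5% ± 1.87 in Control, and Cox6b2, the testis form of a cytochrome oxidase subunit, 13.4% ± 3.35 in CSDS and 17.8% ± 6.32 in Control. Majin, a meiotic telomere-attachment protein, and Catsper1 were high, at 92.4% ± 1.55 and 93.97% ± 3.09 in CSDS and 94.01% ± 0.670 and 88.8% ± 6.58 in Control. The windows of Majin, Catsper1, Mos and Crem were placed on a gene end, and those of Catsperz and Cox6b2 on an annotated start.

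The stretch also held 9 chromatin genes, 18 broadly expressed genes, 7 cytokine genes and 19 Zfp genes that were measured, with 9, 18, 6 and 19 lower in CSDS, 0 called, and medians of -3.38, -3.38, -3.35 and -3.60 points. Dnmt3a, the de novo DNA methyltransferase of the male germ line, was at 10.9%, 7.13% and 6.90% in CSDS and at 12.1%, 12.5% and 10.96% in Control over 337 cytosines. Morc2a averaged 9.67% ± 2.08 in CSDS and 13.9% ± 2.03 in Control, Crebbp 8.71% ± 2.47 in CSDS and 12.2% ± 0.149 in Control, Arid1b 7.52% ± 2.70 in CSDS and 11.03% ± 0.941 in Control, and Men1 13.5% ± 3.75 in CSDS and 15.1% ± 1.67 in Control. Among broadly expressed genes the respiratory subunit Ndufa3 was at 15.4%, 10.4% and 12.6% in CSDS and at 18.6%, 20.7% and 22.6% in Control. Ewsr1, Ndufv1 and U2af2 averaged 8.33%, 12.2% and 7.95% in CSDS and 14.04%, 16.96% and 10.8% in Control.

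The cytokine Lif was the exception among the cytokine windows, with 88.0% ± 4.27 in CSDS and 92.4% ± 0.822 in Control. Il7, Il11, Ptger4 and Osmr averaged 16.9%, 16.8%, 11.9% and 6.72% in CSDS and 20.5%, 20.1%, 15.3% and 7.79% in Control. Of the Zfp genes, which encode zinc-finger proteins and lie mostly on chromosome 7, 16 were under 20% in Control. Zfp28, Zfp524 and Zfp667 were at 10.7% ± 2.69, 10.96% ± 2.73 and 8.97% ± 2.71 in CSDS and at 18.6% ± 4.36, 18.4% ± 3.27 and 15.2% ± 3.21 in Control, with groups that did not overlap. CSDS stood below in this way at 7 of the 19, against 37.1% of all windows. Zfp958, on chromosome 8, was at 5.34%, 6.45% and 8.36% in CSDS and at 12.05%, 30.4% and 8.15% in Control. Its groups overlapped, and its difference rested largely on Control replicate 2. Zfp418 was highest and Zfp772 lowest, at 21.4% ± 6.17 and 3.03% ± 2.08 in CSDS and 22.5% ± 7.48 and 6.35% ± 3.00 in Control. After the mitochondrial correction, the median difference over all windows was -0.271 points and the medians of the lists lay between -0.358 and +0.918.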

How the data were processed

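Male germ cells were profiled in 3 CSDS and 3 Control libraries with the Zymo-Seq RRBS kit after column extraction of DNA, per the labels' protocols. Trim Galore 0.5.0, Bismark 0.20.0 and GRCm38 are named per the submitters' processing notes, and filters are not given there. The deposited tables, 1 per library, give each cytosine's coverage as a read count and its methylated and unmethylated shares in percent. The smallest coverage in any table was 10. Multiplying coverage by percent gave whole methylated counts. Errors are the spread between libraries, not counting intervals.

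Cytosines listed in all 6 libraries were placed in 500-bp tiles of 3 or more, and a tile's level was the mean percent of its cytosines. Gene windows were 1 kb on each side of a RefSeq start, taking the start with most cytosines, or the gene end with more cytosines where no start was given (136 of 610 near windows). In the gene table, 333 entries on other contigs were dropped. Groups came from the titles. Levels were compared with exact permutation and sign-flip tests, and all tiles and windows with a quasi-binomial F test (R 4.3.3, variances moderated with limma 3.58.1) tested on simulated data. Alternatives were limma on logit values with a pseudocount of 1, other coverage limits, weights, boundaries and matching, a mitochondrial correction, a replicate block and each library left out. Named genes were all measured imprinted genes, from each other list the 4 with the largest difference and the highest and lowest in Control, and tiles as described in the report. Members and lists were chosen with earlier results of these data known.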

Additional observations from a re-analysis of the deposited data

How the results depend on the processing

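The lower CSDS level in the near stretch kept its direction under every alternative run, between -2.66 points with each cytosine weighted equally and -0.627 after the mitochondrial correction, and between -2.55 and -1.51 with 1 library left out. The mean difference between the near stretch and its matched rest changed direction with each cytosine weighted equally (+0.277), without chromosomes 7 and 19 (+0.0249) and without chromosomes 7, 14 and 19 (+0.363), and without chromosome 7 it was -0.0342 and no longer past the threshold. The settings without chromosomes 7 or 14 were chosen after seeing the data. With 1 library left out it lay between -0.813 and -0.776, where 5 libraries allow no p below 0.0625. Its difference between CSDS and Control was -0.0120 points with a limit at 6 Mb. The causes of these changes were not tested. Near tiles called numbered 0 to 72 and near windows called 0 to 11 with 1 library left out, both upper values without CSDS replicate 1, and limma called 3 near windows. The correlations of deviations between CSDS and Control libraries of the same replicate number were -0.0627, -0.0678 and 0.00500. These deviations gave no sign of pairing by number, and whether samples of the same number were handled together is not given in the sources used here. With a replicate block the near level differed by -1.87 points (exact paired sign-flip p = 0.25, the smallest 3 pairs allow), the near-minus-rest difference by +0.0441 (exact p = 0.75), and 0 tiles and 0 windows were called. Among 73 named tiles and windows, 13 changed sign after the mitochondrial correction and 2 with reads summed, and 6 became called without CSDS replicate 1. In that setting 1.42% of all tiles and 1.32% of all windows were called. Many of the 73 were picked for a small p or a large difference in these data, so the 6 cannot be set against those shares. Corrected differences in windows were +1.03 points at Pon2, +0.918 at the shared window of Peg3 and Usp29, +1.10 at Tfap4, +1.06 at Crem, +1.78 at Men1, +0.582 at U2af2, +2.61 at Osmr, +1.99 at Zfp418 and +0.203 at Zfp772, and in sparse tiles +3.33 at Gm3411, +3.03 at Tfap4 and +2.29 at Pcx. In these sparse tiles every library lay below its own mitochondrial share, so the corrected levels were below 0. The Control means of the Osmr and Zfp772 windows also lay below every Control share. Sign changes at these features can therefore come from a correction that removes too much. With reads summed, the differences were -0.622 at Vip and +3.95 at Zfp418. With 1 library left out, the differences ranged from -0.0923 to +4.45 at Sgce and Peg10, from -5.08 to +0.975 at Peg3 and Usp29, from -4.55 to +1.02 at the Tfap4 window, from -1.16 to +2.72 at Vip, from -3.19 to +0.678 at Osmr, from -5.41 to +1.43 at Zfp418, and in tiles from -1.93 to +0.795 at Kdm2a, from -0.338 to +0.921 at Gm20618 and from -1.99 to +0.634 at Gm3411. Depth limits single tiles, since the sparsest held 30 reads in a library.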
